A study of Mus musculus with 32 samples.

Results

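Heart RNA of C57BL/6 mice was compared between a longer and a shorter course of social stress, each followed by 1 day of rest. The measure was the difference of stress effects, that is the change between stressed and control hearts after 10 days minus the same change after 5 days. The 4 groups were chosen by sample title and hold 16 of the 32 arrays of the series, with 4 arrays per group and 1 heart per array. In the 10-day group (T10R1), mice spent 6 hours on each of 10 days in a mesh box placed in the cage of an aggressor, with episodes of direct attack. Its controls sat in mesh boxes with no aggressor over the same course. The 5-day group (T5R1) and its own controls were treated in the same way for 5 days. No genetic change, drug or other agent is named for any group, and the labels used here give neither age nor sex. The 16 remaining arrays, of longer rests, entered the fit only to estimate the spread between arrays. They also counted in the choice of the probes that were tested.

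The questions were which genes respond to stress of both lengths and which respond to only 1 of them. The heart consists of cardiomyocytes among fibroblasts, endothelial cells, mural cells and resident macrophages. Cardiac fibroblasts make the collagens, matricellular proteins and cross-linking enzymes of the extracellular matrix, and they raise them when they are activated by load, injury or neurohormonal signals. Adult cardiomyocytes rarely divide, so transcripts for mitosis and DNA replication in a whole heart are usually ascribed to dividing fibroblasts, endothelial cells and leukocytes. In such bulk RNA, more or fewer cells of a type and more or less RNA per cell cannot be told apart.

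Values are log2 spot signals relative to the 75th percentile of the same array, so a level of 0 is that percentile and a difference of 1 is a doubling. A gene was called when limma's Benjamini-Hochberg adjusted p over the 27517 tested genes was below 0.05, and the words rose and fell are kept for called genes. The 16 arrays had 28792 to 37307 probes above background, and arrays within a group correlated at 0.9783 to 0.9923. All 9 heart muscle markers examined, among them Myh6 and Tnnt2, were above background on the 16 arrays. Each condition occupied a slide of its own, and the 10-day slide was scanned on another day than the 5-day slide. Days of stress, slide and scan day therefore cannot be told apart, except that each stress effect was taken within a slide. On each slide the controls occupied other columns than the stressed mice, so stress and slide column cannot be told apart either. Some arrays were the highest or lowest of their group in the mean of a gene list, taken relative to the control mean of their slide. The 10-day control replicate 3 lay 2.03 above its group's mean in 24 immediate early genes and 0.93 above it in 30 acute inflammation genes. The 10-day stressed replicate 1 was highest of its group in mitosis genes (1.48 above the control mean) and in erythroid markers (1.32). The 5-day stressed replicate 3 had high erythroid markers (1.78) and low adipocyte markers (-1.92), and the 10-day stressed replicate 4 had low atrial (-1.56) and adipocyte markers (-1.70). Where leaving out 1 of the 16 arrays moved a list's printed count or median by over 1.5 times, the values without it or their range are given, apart from some changes of a count by 3 genes or fewer.

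Stress of 5 days was followed by many more called genes than stress of 10 days. After 10 days 312 genes were called, 1.13% of those tested, with 213 higher (0.774%) and 99 lower (0.36%) in stressed hearts. After 5 days 3776 genes were called (13.7%), with 1456 higher (5.29%) and 2320 lower (8.43%). The groups were of equal size and the fit used 1 spread per gene for all of them, while the median SD within a group was 0.164 in 10-day stressed and 0.175 in 10-day control hearts, and 0.199 in 5-day stressed and 0.147 in 5-day control hearts. At an unadjusted p below 0.05 the counts were 3609 genes after 10 days and 8121 after 5 days. Calls of at least a 2-fold change numbered 69 higher and 12 lower after 10 days, against 377 higher and 149 lower after 5 days.

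Most genes called after 10 days were measured in the same direction after 5 days. Of the 312 genes called after 10 days, 283 (90.7%) had a 5-day change of the same sign. The 213 genes that rose after 10 days had a median change of 0.74 there and 0.63 after 5 days. The 99 that fell had medians of -0.48 after 10 days and -0.35 after 5 days. In the other direction the match was closer for the genes that rose than for those that fell. Of the 1456 genes that rose after 5 days, 1205 (82.8%) were also higher after 10 days, with a median of 0.24 after 10 days against 0.62 after 5 days. Of the 2320 genes that fell after 5 days, 1450 (62.5%) were lower after 10 days, with medians of -0.06 after 10 days and -0.44 after 5 days. Among all tested genes 50% were higher after 10 days, and the median change was 0.00 after 10 days and -0.12 after 5 days. After 5 days 9199 of the 27517 tested genes were higher and 18318 lower. Over all tested genes the 10-day and 5-day effects had a Spearman correlation of 0.14 and a Pearson correlation of 0.33.

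A gene was counted as shared when it was called after both lengths in the same direction. There were 192 such genes (0.698% of those tested), 143 higher and 49 lower, which is 61.5% of the 10-day calls and 5.08% of the 5-day calls. A gene was counted as specific to a length when it was called there and not at the other length, and when the difference of effects was itself called. The difference was called for 163 genes (0.592%), positive in 99 (0.36%) and negative in 64 (0.233%), where negative means a lower 10-day than 5-day effect. Of these, 151 (0.549%) were specific to 5 days, 61 higher and 90 lower after stress. Only 6 (0.0218%) were specific to 10 days, and 6 more had a called difference with neither effect called. No gene was called in opposite directions at the 2 lengths. A total of 4902 genes had an unadjusted p of the difference below 0.05. In 122 of the 163 genes the 10-day and 5-day effects had opposite signs.

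The count of shared genes was steadier than the count of specific genes. With quantile normalisation 123 of the 192 genes were again shared, and 166 were with the authors' deposited table. With only the 16 arrays in the fit 31 genes were shared, 27 of them among the 192, and 45 genes were called after 10 days. Leaving out 1 array moved the shared count by over 1.5 times for 5 of 16 arrays, namely 10-day stressed replicates 1 (62 genes) and 4 (123) and 10-day control replicates 1 (88), 2 (92) and 4 (115). The number of called differences moved by over 1.5 times for 12 of the 16 arrays and lay between 11, without the 5-day control replicate 2, and 321, without the 10-day control replicate 1. It was 318, 16 and 22 without 10-day stressed replicates 1, 3 and 4, and 34 and 22 without 10-day control replicates 2 and 4. It was 34, 21 and 258 without 5-day stressed replicates 1, 3 and 4, and 33 and 49 without 5-day control replicates 3 and 4. The 10-day calls numbered 86 and 146 without stressed replicates 1 and 4, and 123, 116, 185 and 176 without control replicates 1 to 4. The 5-day calls numbered 2177 without stressed replicate 1 and 2410 without control replicate 2. The direction of the differences depended on scaling, since 39.3% of the called differences were negative in the values used here, 81.9% with quantile normalisation and 73.5% with the authors' table. The share of lower genes among the 5-day calls was 61.4% here, 36.5% with quantile normalisation and 38.7% with the authors' table.

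**Figure D1:**
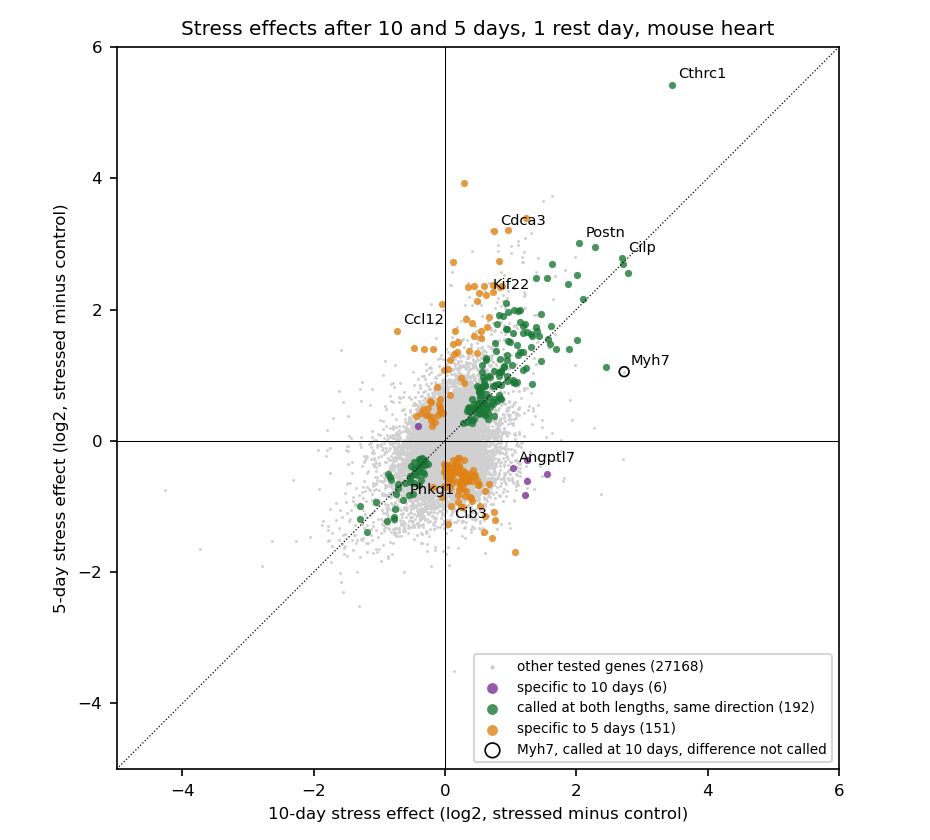
Stress effect after 10 days (x axis) against stress effect after 5 days (y axis) for each tested gene, in log2 units, stressed minus control, as fitted. Green points are the 192 shared genes, and the dotted line marks equal effects. Some shared genes, such as Postn and Cthrc1, lie well above that line. Orange points are the 151 genes specific to 5 days and purple points the 6 specific to 10 days.

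The genes that rose after both lengths were led by products of activated fibroblasts. Of 36 tested genes for collagens and matrix proteins, 22 rose after 10 days and 28 after 5 days, with 21 in common and none lower. Their median change was 0.90 after 10 days and 1.06 after 5 days, against 0.00 and -0.12 over all tested genes. All 36 were above background on all 16 arrays. No member had a called difference between the lengths (lowest adjusted p = 0.0672), and 27 of 36 differences were negative. Without the 10-day stressed replicate 1, 1 negative difference was called, and without the 5-day stressed replicate 4, 1 positive and 1 negative. The list mean separated every stressed heart from the controls of its slide. It stood at 1.26, 0.73, 0.60 and 1.26 above the control mean in 10-day stressed replicates 1 to 4, and the 10-day controls spanned -0.11 to 0.18. Across 5-day stressed hearts it was 1.97, 1.18, 0.85 and 0.97, and the 5-day controls spanned -0.05 to 0.12. After 10 days 12 members were called without the 10-day stressed replicate 1, 14 without replicate 4, and 6 with only the 16 arrays in the fit.

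Ltbp2, a latent TGF-beta binding protein of microfibrils, had nearly the same effect at both lengths. Its probe lies at chr12:86124167-86124226 on mm9, minus strand. The signal was 4.05, 2.86, 2.52 and 4.22 in 10-day stressed hearts, against 1.29, 1.30, 1.47 and 1.16 in 10-day controls. It was 4.73, 3.12, 2.39 and 3.13 in 5-day stressed hearts, against 1.15, 1.30, 1.15 and 1.11 in 5-day controls. No stressed heart overlapped its controls. The log2 change was 2.11 ± 0.34 (SE, n = 4 against 4) after 10 days (adjusted p = 0.00164) and 2.16 ± 0.34 after 5 days (adjusted p = 0.000119). The effects differed by -0.06 ± 0.48 (adjusted p = 0.966). With only the 16 arrays in the fit the 10-day change was not called (adjusted p = 0.0631).

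Cilp, the cartilage intermediate layer protein of the pericellular matrix, behaved likewise. Its signal was 3.06, 2.07, 1.41 and 3.11 in 10-day stressed hearts and -0.12, -0.27, -0.14 and -0.58 in their controls. It was 3.64, 2.23, 1.91 and 2.31 in 5-day stressed hearts and between -0.33 and -0.21 in their controls. Again the groups did not overlap at either length. The changes were 2.69 ± 0.32 (adjusted p = 4.4e-05) after 10 days and 2.78 ± 0.32 (adjusted p = 2.66e-06) after 5 days, with a difference of -0.09 ± 0.46 (adjusted p = 0.941).

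Col3a1, the chain of type III collagen, had signals of 6.45, 5.27, 4.89 and 6.44 in 10-day stressed hearts, against 3.68, 3.32, 3.41 and 3.49 in 10-day controls. After 5 days the stressed hearts had 7.15, 6.18, 5.55 and 5.69, against 3.57, 3.03, 3.29 and 2.88 in 5-day controls. The stressed hearts all lay above the controls, and in each stressed group replicate 1 was the highest. Col3a1 rose by 2.29 ± 0.32 after 10 days (adjusted p = 0.000382) and by 2.95 ± 0.32 after 5 days (adjusted p = 1.2e-06). Col1a1, a chain of type I collagen, rose by 2.01 ± 0.30 (adjusted p = 0.000747) and by 2.53 ± 0.30 (adjusted p = 3.78e-06).

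Matricellular and fibre-associated proteins rose beside the collagens. Postn, which encodes periostin, a product of activated fibroblasts, rose by 2.05 ± 0.42 after 10 days (adjusted p = 0.0149) and by 3.02 ± 0.42 after 5 days (adjusted p = 2.69e-05). Thbs4, a thrombospondin, rose by 1.88 ± 0.30 after 10 days and 2.38 ± 0.30 after 5 days. Mfap4, another microfibril-associated glycoprotein, rose by 1.69 ± 0.22 after 10 days and 1.40 ± 0.22 after 5 days. Fbn1, the microfibril backbone fibrillin, rose less clearly after 10 days, by 0.96 ± 0.23 (adjusted p = 0.0389), than after 5 days, by 1.96 ± 0.23 (adjusted p = 3.78e-06). The difference of -1.0 ± 0.33 for Fbn1 was not called (adjusted p = 0.122). The 10-day call held in 15 of 26 alternatives for Fbn1, 18 for Cthrc1, described next, and 23 for Postn. Cthrc1, a secreted protein of collagen-making fibroblasts, was above background on none of the controls of either slide. It was at least 8.43-fold higher in 10-day stressed hearts (adjusted p = 0.0202) and at least 10.1-fold higher in 5-day stressed hearts (adjusted p = 2.57e-05). These bounds hold for the values used here. Under the 26 alternatives the fitted log2 change of Cthrc1 ran from 1.20 to 4.09 after 10 days and from 2.11 to 6.01 after 5 days.

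**Figure D2:**
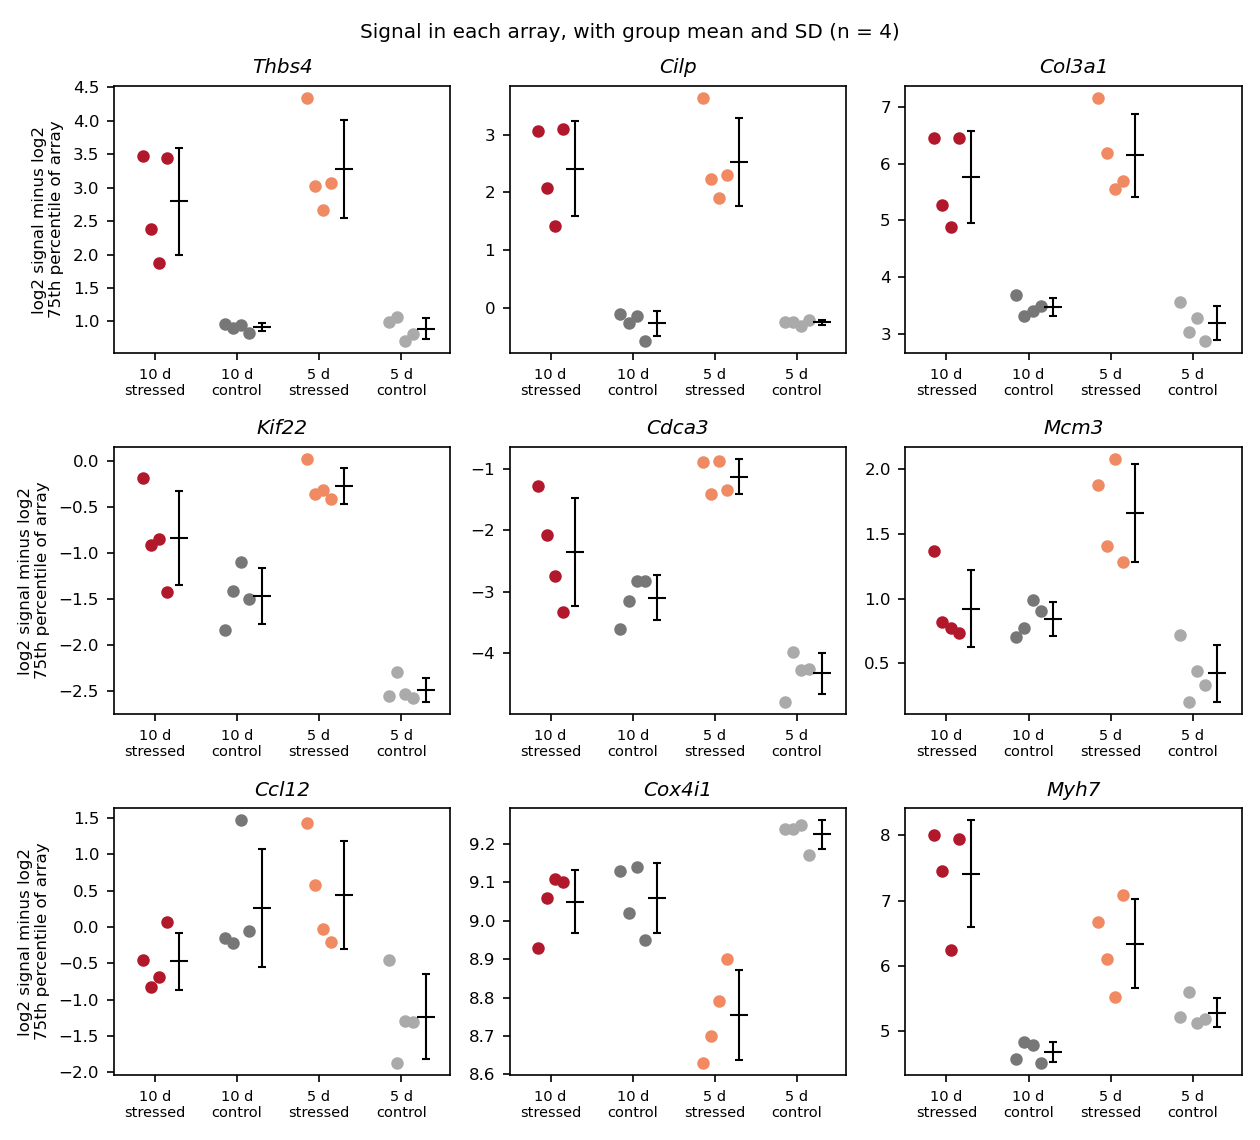
Signal of 9 genes in each array (y axis, log2 relative to the array's 75th percentile), by group, with the group mean and SD beside the points (n = 4). Thbs4, Cilp and Col3a1 separate stressed from control hearts at both lengths. Kif22, Cdca3 and Mcm3 do so without overlap only after 5 days, Ccl12 shows the high 10-day control replicate 3, Cox4i1 is lowest in 5-day stressed hearts, and Myh7 is highest in 10-day stressed hearts.

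Enzymes that process collagen and signalling genes of the fibroblast were a smaller part of the shared response. Of 28 enzymes, inhibitors and processing factors, 6 rose after 10 days, namely Loxl1, Loxl2, Loxl3, Adamts2, Bmp1 and Mmp2, and all 6 also rose after 5 days, when 16 rose and 2 fell. Without the 5-day stressed replicate 1, 10 rose after 10 days. After 5 days 1 fell without the 5-day stressed or control replicate 3. Loxl2, a lysyl oxidase that cross-links collagen, rose by 1.14 ± 0.21 (adjusted p = 0.0066) after 10 days and by 1.99 ± 0.21 (adjusted p = 7.87e-07) after 5 days. Of 21 fibroblast and myofibroblast genes 12 rose after each length, 10 of them in common, with medians of 0.55 after 10 days and 0.49 after 5 days. The 10-day count was 6 without the 10-day stressed replicate 4 and 7 without its replicate 1 or control replicates 1, 2 or 4. Of 27 genes of TGF-beta, BMP and Wnt signalling, 5 rose after 10 days, while 9 rose and 2 fell after 5 days. Without the 10-day stressed replicate 1 or 4, 2 of them rose after 10 days, and 3 did without the 10-day control replicate 1, 2 or 4. After 5 days 1 fell without the 5-day stressed replicate 3 or control replicates 1 or 3. The secreted Wnt antagonists Sfrp2 and Frzb were among the shared genes. Sfrp2 rose by 1.60 ± 0.32 after 10 days and 1.47 ± 0.32 after 5 days, and Frzb by 0.99 ± 0.18 and 1.5 ± 0.18. Ecm1, a secreted matrix glycoprotein, rose by 0.66 ± 0.10 after 10 days and by 0.33 ± 0.10 after 5 days, and this difference of 0.33 ± 0.14 was not called (adjusted p = 0.21).

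Genes of muscle, of the acute phase, of macrophages and of endothelium were also among the shared rises. Acta1, the skeletal alpha-actin that the fetal heart uses, had signals of 6.08, 6.32, 6.14 and 4.99 in 10-day stressed hearts, against 4.45, 4.52, 4.85 and 4.18 in their controls. In 5-day stressed hearts it had 6.53, 6.56, 6.17 and 6.94, against 4.80, 4.74, 5.05 and 4.64 in their controls. All stressed hearts lay above all controls of their slide, and the rises were 1.38 ± 0.28 (adjusted p = 0.0128) and 1.74 ± 0.28 (adjusted p = 0.000132). Serpina3n, an acute phase inhibitor of serine proteases, rose by 1.38 ± 0.25 after 10 days and by 2.48 ± 0.25 after 5 days, with a difference of -1.10 ± 0.35 (adjusted p = 0.11). Ccl8, a monocyte-attracting chemokine, rose by 1.56 ± 0.32 and 2.49 ± 0.32, and Ms4a7, a macrophage membrane protein, by 1.46 ± 0.29 and 1.94 ± 0.29. Aplnr, the receptor for the peptide apelin on endothelial cells, rose by 0.85 ± 0.19 after each length.

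Genes that fell after both lengths were fewer and their changes smaller. Phkg1, the catalytic subunit of muscle phosphorylase kinase, had 0.65, 0.73, 0.87 and 0.67 in 10-day stressed hearts, against 1.29, 1.45, 1.28 and 1.43 in their controls. It had 0.10, 0.63, 0.24 and 0.27 in 5-day stressed hearts, against 1.31, 1.21, 1.07 and 1.27 in their controls. Neither pair of groups overlapped, and Phkg1 fell by 0.63 ± 0.12 after 10 days (adjusted p = 0.00763) and by 0.90 ± 0.12 after 5 days (adjusted p = 1.43e-05). Pfkfb1, which sets fructose-2,6-bisphosphate, fell by 0.83 ± 0.18 and 0.56 ± 0.18. Cyp1a1, the xenobiotic monooxygenase induced through the aryl hydrocarbon receptor, fell by 1.30 ± 0.29 (adjusted p = 0.0228) and 0.99 ± 0.29 (adjusted p = 0.0216). Cacna1s, the pore subunit of the skeletal muscle L-type calcium channel, fell by 0.48 ± 0.12 and 0.80 ± 0.12, and the membrane protein gene Ano10 by 0.78 ± 0.17 and 1.19 ± 0.17. None of these 5 genes had a called difference between the lengths. The 10-day fall kept its call in 26 of 26 alternatives for Phkg1, 21 for Pfkfb1, 20 for Cyp1a1 and for Ano10, and 7 for Cacna1s. The 5-day fall kept it in 15 for Pfkfb1 and 22 for Cyp1a1, and in all 26 for Phkg1 and Cacna1s.

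**Figure D3:**
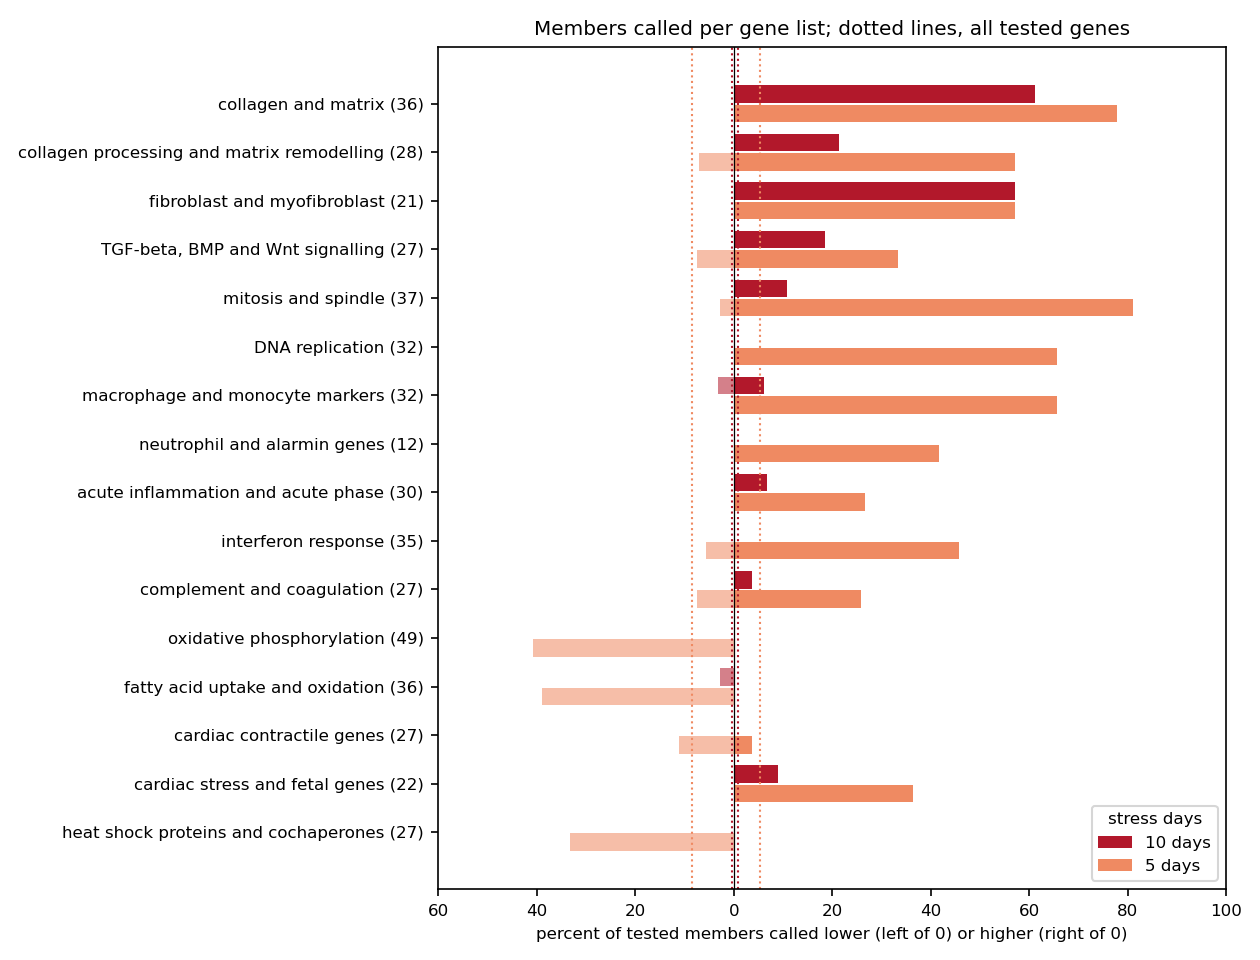
Percentage of tested members of 16 gene lists that were called higher (right of 0) or lower (left of 0, paler) after 10 days and after 5 days of stress, with the number tested in brackets. Dotted lines give the same percentages over all tested genes. Collagen and fibroblast lists have long bars at both lengths, whereas mitosis, DNA replication, macrophage and interferon lists have long bars after 5 days.

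The genes specific to 5 days that were higher after stress included components of the dividing cell. Of 37 tested genes of mitosis and the spindle, 30 rose and 1 (Spc24, of the kinetochore) fell after 5 days, and 4 rose after 10 days (Ccnb2, Nuf2, Cdca8 and Anln). Their median change was 0.74 after 10 days and 2.07 after 5 days, or 1.70 after 5 days with undetected genes at their bound. After 10 days 33 of the 37 were measured higher and 30 had an unadjusted p below 0.05. After 5 days both counts were 33. Over all 27517 tested genes 3609 had such a p after 10 days and 8121 after 5 days. The difference was negative in 33 of the 37 and called in 9, namely Birc5, Bub1b, Cdc20, Aurka, Plk1, Mki67, Kif22, Kif4 and Cdca3. Leaving out 1 array gave between 3 and 22 called differences in this list, with 22 without the 10-day stressed replicate 1, 13 without the 10-day control replicate 1, 9 without the 5-day stressed replicate 4, 6 without the 5-day control replicate 1 and 5 without the 10-day control replicate 3. Without any other single array 3 or 4 were called. Their number after 10 days ran from 0 to 16 rises, with 16 when the 10-day stressed replicate 4 was left out 0 without the 10-day stressed replicate 1 or control replicates 1 or 2, 1 without the 10-day stressed replicate 2 or control replicate 4, and 2 without the 10-day stressed replicate 3 or the 5-day stressed replicate 2 or control replicate 4, whereas 29 or 30 rose after 5 days in each case. The 10-day median was 0.44 without the 10-day stressed replicate 1.

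The promoters of the 4 mitosis genes with the smallest p of the difference are shown because many genes of this class are known to carry a pair of elements near their start. These are the cell cycle genes homology region (CHR, TTTGAA), bound by the MuvB core of the DREAM and B-Myb complexes, and the CCAAT box (CCAAT), bound by NF-Y. Each sequence is from RefSeq (GRCm38.p6), 300 bases from 250 before to 50 after the gene's start, 5′ to 3′ on the gene's strand, with matches in capitals on either strand, so that CHR also reads TTCAAA and CCAAT also reads ATTGG. No matches overlap. Kif22 lies at chr7:127042371-127042670 (minus strand), Cdca3 at chr6:124829926-124830225 (plus), Birc5 at chr11:117848987-117849286 (plus) and Plk1 at chr7:122159185-122159484 (plus).
Kif22: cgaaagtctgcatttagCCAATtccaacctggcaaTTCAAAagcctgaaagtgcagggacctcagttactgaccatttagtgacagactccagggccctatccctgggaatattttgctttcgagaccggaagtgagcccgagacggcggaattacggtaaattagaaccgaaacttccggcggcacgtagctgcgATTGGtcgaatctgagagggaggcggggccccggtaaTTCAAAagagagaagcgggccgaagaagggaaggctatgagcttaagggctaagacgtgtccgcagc
Cdca3: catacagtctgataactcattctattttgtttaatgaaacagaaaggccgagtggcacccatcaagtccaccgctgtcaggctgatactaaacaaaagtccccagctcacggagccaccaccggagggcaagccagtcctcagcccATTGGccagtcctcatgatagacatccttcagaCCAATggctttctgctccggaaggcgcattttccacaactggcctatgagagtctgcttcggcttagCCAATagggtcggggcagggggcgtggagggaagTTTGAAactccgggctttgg
Birc5: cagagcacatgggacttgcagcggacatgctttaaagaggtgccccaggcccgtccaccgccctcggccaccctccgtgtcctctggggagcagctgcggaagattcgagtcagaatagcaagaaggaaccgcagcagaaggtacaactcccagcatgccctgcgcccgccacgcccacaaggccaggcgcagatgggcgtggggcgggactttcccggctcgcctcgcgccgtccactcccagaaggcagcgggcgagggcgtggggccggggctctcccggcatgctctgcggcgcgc
Plk1: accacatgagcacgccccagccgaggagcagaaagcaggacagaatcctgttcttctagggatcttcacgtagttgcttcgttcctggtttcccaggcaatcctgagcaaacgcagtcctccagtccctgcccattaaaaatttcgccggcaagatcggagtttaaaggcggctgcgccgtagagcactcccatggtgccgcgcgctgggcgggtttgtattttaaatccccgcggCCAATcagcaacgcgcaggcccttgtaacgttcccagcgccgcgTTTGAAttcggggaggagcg
The Kif22 window held 2 CHR and 2 CCAAT matches, Cdca3 held 1 and 3, Plk1 held 1 and 1, and these letters are not in the Birc5 window. Of the 27025 promoters listed, 18.1% held CHR, 37.9% held CCAAT and 7.12% held both. Among promoters of tested genes (13586 with an entry) these shares were 13.2%, 38.4% and 5.42%. Of 31 tested mitosis genes with an entry, 24 (77.4%) held CHR, 25 (80.6%) CCAAT and 22 (71%) both. The 9 with a called difference held both in 8 cases (88.9%). Of 26 DNA replication genes 3 (11.5%) held CHR and 14 (53.8%) CCAAT, and of 26 collagen and matrix genes 5 (19.2%) and 12 (46.2%) did. A match describes these letters and shows no binding.

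Kif22, a kinesin that moves chromosomes on the spindle, had the smallest p of the difference in this list. Its signal was -0.18, -0.91, -0.85 and -1.42 in 10-day stressed hearts, against -1.84, -1.41, -1.10 and -1.50 in 10-day controls. It was 0.02, -0.36, -0.32 and -0.41 in 5-day stressed hearts, against -2.55, -2.29, -2.53 and -2.57 in 5-day controls. The 10-day groups overlapped through stressed replicate 4 and control replicates 2 and 3, whereas the 5-day groups lay far apart. The 10-day change was 0.62 ± 0.17 (adjusted p = 0.0702), the 5-day change 2.22 ± 0.17 (adjusted p = 1.3e-08) and the difference -1.59 ± 0.24 (adjusted p = 0.00586). This difference was called under all 26 alternatives, with values from -1.81 to -1.02.

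Cdca3, which triggers mitotic entry, had -1.29, -2.08, -2.74 and -3.33 in 10-day stressed hearts, against -3.60, -3.15, -2.82 and -2.83 in 10-day controls. Stressed hearts of the 5-day group had -0.89, -1.41, -0.88 and -1.34, against -4.79, -3.98, -4.28 and -4.26 in 5-day controls. The 10-day stressed hearts were spread over the range of their controls and above it, with replicate 1 highest. The changes were 0.74 ± 0.28 (adjusted p = 0.237) after 10 days and 3.20 ± 0.28 (adjusted p = 1.13e-07) after 5 days, and the difference was -2.46 ± 0.40 (adjusted p = 0.0116). Birc5, survivin of the chromosomal passenger complex, changed by 0.74 ± 0.20 (adjusted p = 0.0763) and 2.37 ± 0.20 (adjusted p = 9.14e-08), with a difference of -1.63 ± 0.29 (adjusted p = 0.0132). Plk1, a mitotic kinase, changed by 0.67 ± 0.18 (adjusted p = 0.0598) and 1.88 ± 0.18 (adjusted p = 1.84e-07), with a difference of -1.21 ± 0.25 (adjusted p = 0.0319). Mki67, the proliferation marker Ki-67, changed by 0.73 ± 0.25 (adjusted p = 0.171) and 2.27 ± 0.25 (adjusted p = 1.2e-06), with a difference of -1.54 ± 0.35 (adjusted p = 0.044). The difference kept its call in 25 of 26 alternatives for Cdca3, 24 for Birc5, 15 for Plk1 and 11 for Mki67.

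The controls of the slides also differed for these genes. Mitosis genes had a median 0.37 higher in 10-day controls than in 5-day controls, with 28 of 37 higher, and a median 0.91 lower in 10-day stressed than in 5-day stressed hearts, with 33 of 37 lower. Over all tested genes the medians of these gaps were -0.04 and 0.00 (10-day minus 5-day). The 61 genes higher and specific to 5 days had a median 0.52 higher in 10-day than in 5-day controls, with 60 higher. Their median was 0.64 lower in 10-day stressed than in 5-day stressed hearts, with 58 lower. These 61 genes were chosen by the difference, which is made up of these gaps. For Kif22 the gap was 1.02 between the control groups and -0.57 between the stressed groups, and for Plk1 it was 0.22 and -0.99. Of the 37 genes, 22 were above background on all 4 of the 5-day controls and 26 on all 4 of the 10-day controls, and 8 were above it on none of the 5-day controls, against 2 for the 10-day controls. These gaps run across slides, so slide and days of handling cannot be told apart in them.

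**Figure D4:**
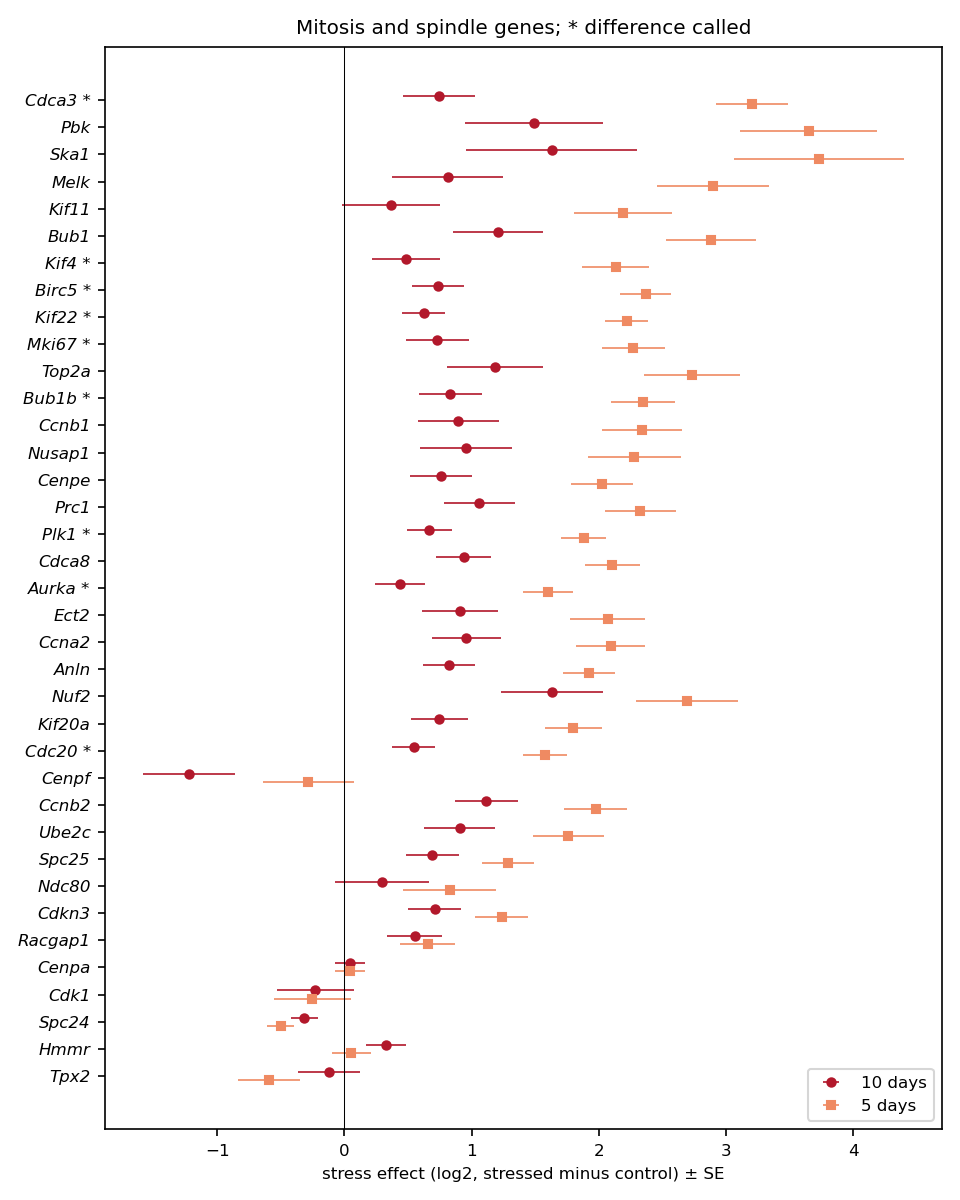
Stress effect (x axis, log2, stressed minus control, with its standard error) of 37 mitosis and spindle genes after 10 days (circles) and 5 days (squares), ordered by the difference. Effects after 5 days exceed those after 10 days for most genes, and an asterisk marks the 9 called differences. Genes undetected in a control group, such as Nuf2, are drawn at their fitted value.

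DNA replication genes had the same order at a lower size. Of 32 tested, 21 rose after 5 days and none after 10 days, when 8 had an unadjusted p below 0.05, with medians of 0.16 after 10 days and 0.52 after 5 days. The 10-day median was 0.03 without the 10-day stressed replicate 1. The list mean in 10-day stressed hearts was 0.49, 0.05, 0.04 and -0.05 above the control mean, with only replicate 1 outside the control range of -0.05 to 0.06. In 5-day stressed hearts it was 0.68, 0.55, 0.76 and 0.45, all above the control range of -0.05 to 0.08. The difference was called for 4 members, Mcm3 and Mcm5 (subunits of the replicative helicase), Tk1 (thymidine kinase) and Uhrf1 (which maintains DNA methylation at the fork), and for 0 to 12 members when 1 array was left out. It was called for 12 members without the 10-day stressed replicate 1, for 7 without the 5-day stressed replicate 4, and for 0 or 1 without each of 11 others. Mcm3 had 1.37, 0.82, 0.77 and 0.73 in 10-day stressed hearts, against 0.70, 0.77, 0.99 and 0.90 in their controls. It had 1.88, 1.41, 2.08 and 1.28 in 5-day stressed hearts, against 0.72, 0.20, 0.44 and 0.33 in their controls. Only the 5-day groups were apart, with changes of 0.08 ± 0.19 after 10 days and 1.24 ± 0.19 after 5 days and a difference of -1.16 ± 0.27 (adjusted p = 0.0453). Tk1 changed by 0.37 ± 0.14 and 1.37 ± 0.14, with a difference of -1.0 ± 0.20 (adjusted p = 0.0316). The difference kept its call in 12 of 26 alternatives for Mcm3 and 18 for Tk1.

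Further named genes specific to 5 days lay outside these lists. Fanci, of the Fanconi anaemia repair pathway, was above background on none of the 5-day controls and was at least 1.45-fold higher in 5-day stressed hearts. Its difference had the smallest adjusted p of the genes described here (0.00132), and the 10-day change was 0.13 ± 0.24 (adjusted p = 0.873). Because the 5-day controls were undetected, this p of the difference rests in part on signals not above background. Of the 163 called differences, 17 had a group with the gene above background on no array. Spag5, a spindle protein, was at least 3.07-fold higher after 5 days (adjusted p of the difference 0.0319), and Pimreg, a mitotic regulator, had a difference of -2.26 ± 0.48 (adjusted p = 0.0319). Tubb3, a beta-tubulin best known from neurons, had -1.53, -2.37, -1.98 and -1.78 in 10-day stressed hearts, against -1.57, -1.84, -1.34 and -1.66 in their controls. It had 0.56, -0.89, -0.29 and -1.0 in 5-day stressed hearts, against -1.47, -1.92, -1.98 and -1.81 in their controls. The 10-day groups overlapped and the 5-day groups did not, and the difference was -1.71 ± 0.35 (adjusted p = 0.0319). Col26a1 was the collagen of this class. It was at least 4.31-fold higher in 5-day stressed hearts, with a 10-day change of 0.59 ± 0.30 (adjusted p = 0.408) and an adjusted p of the difference of 0.0498. The difference kept its call in 25 of 26 alternatives for Fanci, 15 for Spag5 and for Pimreg, 17 for Tubb3 and 8 for Col26a1.

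Immune markers gave more calls after 5 days, as did all tested genes. Of the latter 5.29% rose and 8.43% fell after 5 days, and 1.13% were called after 10 days. Of 32 macrophage and monocyte markers 2 rose (Csf1r and Ms4a7) and 1 fell (Timd4) after 10 days, and 21 rose after 5 days, but no difference was called (lowest adjusted p = 0.0576). The median was 0.44 after 10 days and 0.72 after 5 days, and 30 of 32 were measured higher after 10 days. Without 1 array the 10-day rises numbered 1 (10-day stressed replicate 4 or control replicate 1) to 5 (5-day stressed replicate 1), the fall of Timd4 was lost for 8 of the 16 arrays, and 14 to 23 markers rose after 5 days. A difference was called for 1 marker without the 10-day control replicate 1 and for 2 without the 5-day stressed replicate 4. The list mean was 0.42, 0.27, 0.18 and 0.70 above the control mean in 10-day stressed hearts, with 10-day controls from -0.12 to 0.10. It was 1.24, 0.85, 0.40 and 0.36 in 5-day stressed hearts, with 5-day controls from -0.05 to 0.03. Trem2, a lipid-sensing receptor of macrophages, changed by 0.70 ± 0.23 (adjusted p = 0.164) after 10 days and rose by 1.72 ± 0.23 (adjusted p = 2e-05) after 5 days. Of 12 neutrophil and alarmin genes 0 were called after 10 days and 5 rose after 5 days, or 3 without the 5-day stressed replicate 1 and 2 without its replicate 3 or control replicate 2. S100a8, a calcium-binding alarmin, rose by 2.08 ± 0.57 after 5 days (adjusted p = 0.0153), and its 10-day change was 0.30 ± 0.57. Its signal was 2.02 higher in 10-day than in 5-day controls, and 0.25 higher in 10-day than in 5-day stressed hearts. Of the 12 genes 4 were higher in 10-day than in 5-day controls, with a median gap of -0.10. Slide and days of stress cannot be told apart in these gaps. Among 17 T and NK cell markers 3 fell after 5 days, among 12 B cell markers 1 rose after 5 days, and none of either list was called after 10 days. Of the T and NK cell markers 1 fell after 5 days without the 5-day control replicate 2. After 10 days 1 neutrophil gene was called without the 5-day stressed replicate 1 or 4.

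Ccl12, a chemokine that draws monocytes through CCR2, was the acute inflammation gene with a called difference. It had -0.45, -0.82, -0.69 and 0.07 in 10-day stressed hearts, against -0.15, -0.22, 1.47 and -0.06 in 10-day controls. In 5-day stressed hearts it had 1.43, 0.58, -0.03 and -0.21, against -0.46, -1.87, -1.30 and -1.31 in 5-day controls. Its 10-day control replicate 3 was far above the others, and the 5-day groups did not overlap. The changes were -0.73 ± 0.36 (adjusted p = 0.38) after 10 days and 1.68 ± 0.36 (adjusted p = 0.00237) after 5 days, and the difference was -2.41 ± 0.50 (adjusted p = 0.0319). Without the 10-day control replicate 3 the difference was -2.01 (adjusted p = 0.0479), and it kept its call in 17 of 26 alternatives. Ccl7, another monocyte attractant, had a difference of -2.38 ± 0.65 (adjusted p = 0.0694), which without that replicate was -1.55 and called (adjusted p = 0.0479). Of the 30 acute inflammation genes 2 rose after 10 days and 8 after 5 days, with medians of -0.17 after 10 days and 0.20 after 5 days. Without the 5-day stressed replicate 1, 3 rose after 5 days, and without the 5-day control replicate 2, 4 did. The 10-day median was 0.02 without the 10-day control replicate 3, -0.34 without control replicate 1 and -0.36 without control replicate 2, and the 5-day median ran from 0.09 to 0.32. After 10 days 1 gene rose without the 10-day stressed replicate 1 or 4 or control replicate 2 or 3. Lcn2, the iron-binding acute phase protein, rose by 1.87 ± 0.22 after 5 days, and its 10-day change of 0.81 ± 0.22 was not called (adjusted p = 0.0716).

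Interferon-stimulated genes were called after 5 days and not after 10 days. Of 35 tested, 16 rose and 2 fell after 5 days and 0 were called after 10 days, when 4 had an unadjusted p below 0.05. The medians were 0.07 after 10 days and 0.44 after 5 days, and 31 of 35 differences were negative, yet no difference was called. Without the 5-day stressed replicate 1, 10 members rose after 5 days. The 10-day median ran from 0.04 to 0.16 and the 5-day median was 0.29 without that array. Without each of 6 arrays of the 5-day slide 1 member fell after 5 days. A difference was called for 1 member without the 10-day stressed or control replicate 1 and for 2 without the 5-day stressed replicate 4. Isg15, a ubiquitin-like modifier, had 3.68, 2.89, 2.59 and 2.90 in 10-day stressed hearts, against 2.28, 2.59, 2.51 and 2.85 in their controls. It had 4.02, 3.24, 3.95 and 2.92 in 5-day stressed hearts, against 2.50, 2.32, 2.44 and 2.33 in their controls. The 5-day groups were apart and the 10-day groups overlapped, with a rise of 1.14 ± 0.20 after 5 days (adjusted p = 0.000451) and a difference of -0.68 ± 0.29 (adjusted p = 0.213). Of 27 complement and coagulation genes 1 rose after 10 days (Serping1, the C1 inhibitor), and 7 rose and 2 fell after 5 days. Without the 5-day stressed replicate 1, 3 rose after 5 days, and 4 did without the 5-day stressed replicate 2 or control replicate 3 or 4, while the 10-day rises ran from 0 to 2. C7, of the terminal complement complex, fell by 0.64 ± 0.15 after 5 days and changed by 0.29 ± 0.15 after 10 days, with a difference of 0.93 ± 0.21 (adjusted p = 0.0453) that kept its call in 12 of 26 alternatives.

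**Figure D5:**
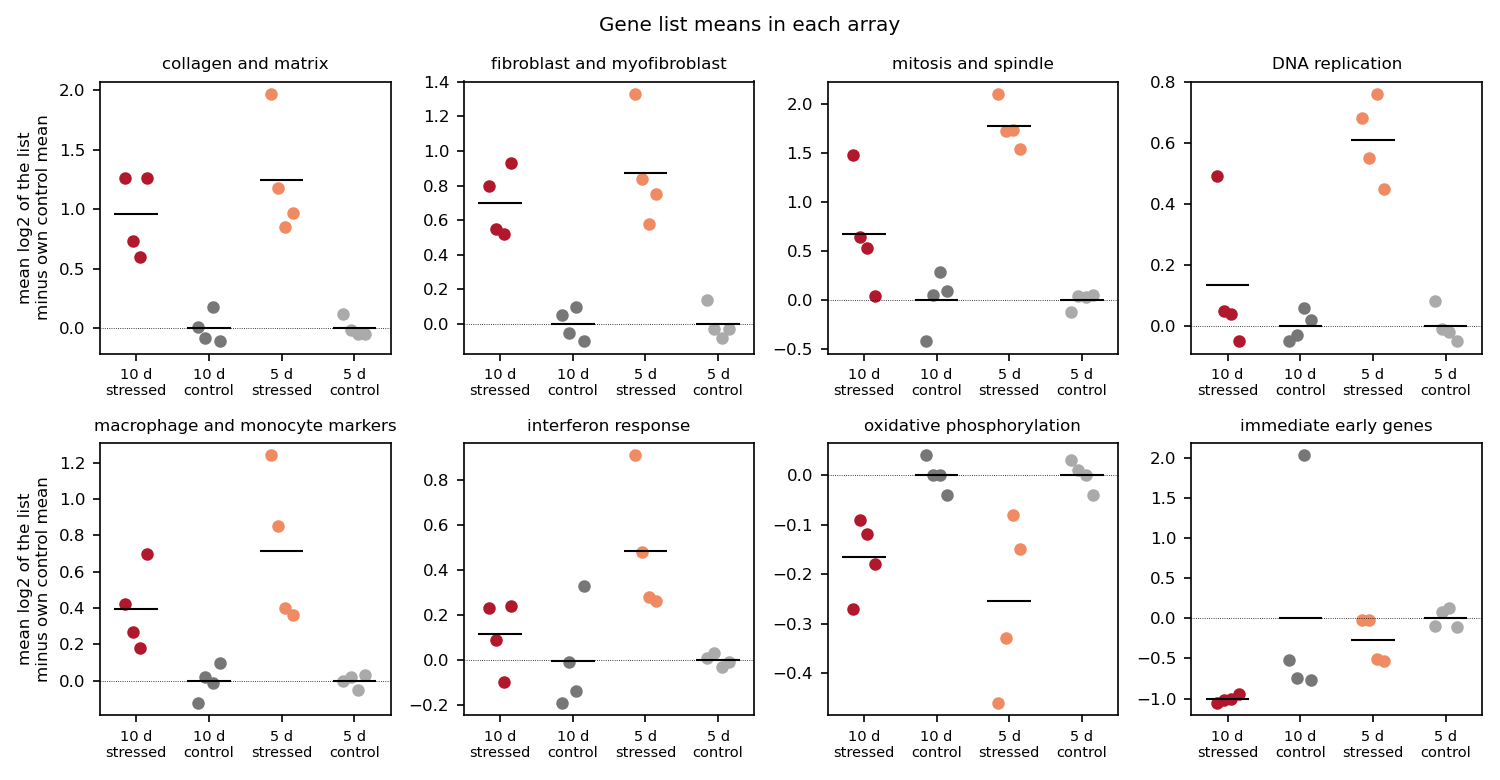
Mean of 8 gene lists in each array (y axis, log2, relative to the mean of the controls on the same slide), with group means as bars (n = 4). Collagen and fibroblast means are high in all stressed hearts. DNA replication means are high in 5-day stressed hearts and in 10-day stressed replicate 1. Mitosis means are highest in 5-day stressed hearts. They lie above all 10-day controls in 10-day stressed replicates 1 to 3 (1.48, 0.64 and 0.53) and not in replicate 4 (0.04). The immediate early genes show the high 10-day control replicate 3.

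Genes of energy metabolism and muscle made up part of the genes lower after 5 days. Of 49 oxidative phosphorylation genes, 20 fell after 5 days and none were called after 10 days, when 18 had an unadjusted p below 0.05. All 49 were lower after 5 days and 48 after 10 days, with medians of -0.17 after 10 days and -0.26 after 5 days. These calls depended on scaling. With quantile normalisation 3 members fell after 5 days and the median was -0.05, and 2 fell with the authors' table, where the median was -0.07, while the all-gene median of -0.12 moved to -0.03 and -0.02. The lower calls after 5 days were 6 without the 5-day stressed replicate 1, 12 without replicate 2 and 13 without the 5-day control replicate 2, and 1 member fell after 10 days without the 5-day stressed replicate 1 or 4. Of 36 genes of fatty acid uptake and oxidation, 1 fell after 10 days (Echs1, enoyl-CoA hydratase) and 14 after 5 days, or 6 with quantile normalisation, 8 with the authors' table and 6 without the 5-day stressed replicate 1. The 10-day falls ran from 0, without any of 7 arrays of the 10-day slide, to 3 without the 10-day stressed replicate 2. Hadha, of the mitochondrial trifunctional protein, fell by 0.51 ± 0.11 after 5 days (adjusted p = 0.0033) and its 10-day change was -0.13 ± 0.11.

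Cox4i1 and Cox7a1, subunits of cytochrome c oxidase, had called differences. Cox4i1 had 8.93, 9.06, 9.11 and 9.10 in 10-day stressed hearts, against 9.13, 9.02, 9.14 and 8.95 in their controls. It had 8.63, 8.70, 8.79 and 8.90 in 5-day stressed hearts, against 9.24, 9.24, 9.25 and 9.17 in their controls. The 10-day groups overlapped and the 5-day groups did not. The changes were -0.01 ± 0.07 after 10 days and -0.47 ± 0.07 after 5 days, and the difference was 0.46 ± 0.10 (adjusted p = 0.034). Cox7a1 had a difference of 0.58 ± 0.13 (adjusted p = 0.0453), and Myom2, a protein of the sarcomere's M band, of 0.68 ± 0.14 (adjusted p = 0.0319). Cib3, a calcium-binding protein, was another gene specific to 5 days and had the larger difference of 1.32 ± 0.27 (adjusted p = 0.0319). The differences of Cox4i1, Cox7a1, Myom2, C7 and Cib3 were not called with quantile normalisation or with the authors' table. They kept the call in 12, 7, 12, 12 and 14 of 26 alternatives in that order. The 90 genes lower and specific to 5 days had a median 0.73 lower in 10-day than in 5-day controls and 0.19 higher in 10-day than in 5-day stressed hearts.

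Other muscle and stress lists gave fewer calls, some of them near the shares over all tested genes. Those shares were 5.29% higher and 8.43% lower after 5 days, and 1.13% called after 10 days. Of 27 contractile genes 0 were called after 10 days, and 1 rose and 3 fell after 5 days. After 5 days 0 rose and 1 fell without the 5-day stressed replicate 1, and 6 fell without replicate 3. Of 22 cardiac stress and fetal genes, 2 rose after 10 days (Myh7 and Acta1) and 8 rose after 5 days, or 5 without the 5-day stressed replicate 1. After 10 days 1 rose without the 10-day stressed replicate 1 and 4 without the 5-day stressed replicate 1. Sprr1a, a small proline-rich protein of stressed cardiomyocytes, rose by 3.1 ± 0.56 after 5 days, and its 10-day change was 1.22 ± 0.56 (adjusted p = 0.349). Xirp2, an actin-binding protein of the intercalated disc, rose by 0.91 ± 0.17 after 5 days, with a 10-day change of 0.40 ± 0.17 (adjusted p = 0.303). The natriuretic peptide genes Nppa and Nppb were called at neither length, with 10-day changes of 0.25 ± 0.25 and -0.22 ± 0.36. Of 27 heat shock proteins and cochaperones 9 fell after 5 days and 0 were called after 10 days. With quantile normalisation 1 rose and 5 fell, and 4, 3 and 5 fell without the 5-day stressed replicate 1, control replicate 2 or control replicate 3. Of 31 ion channel, adrenergic and calcium genes, 1 (Kcna4, a potassium channel) fell after 10 days and 8 fell after 5 days, and the 10-day fall was lost without each of 11 arrays. Of 13 atrial markers 3 fell after 5 days, and their medians were -0.31 after 10 days and -0.91 after 5 days. Without the 10-day stressed replicate 4 the 10-day median was 0.02 and 6 fell after 5 days, and without the 5-day stressed replicate 2, 7 fell. The 10-day median was -0.58 without the 10-day stressed replicate 1, -0.57 without replicate 3 and -0.56 without control replicate 3. The part of the atrium in each piece of tissue was not tested.

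Few genes were specific to 10 days, and 3 of the 6 had an official symbol. Angptl7, an angiopoietin-like secreted protein, had -0.45, 0.40, 0.06 and 0.51 in 10-day stressed hearts, against -1.07, -0.76, -0.60 and -1.20 in 10-day controls. The 5-day stressed hearts had -1.09, -0.67, -1.32 and -0.13, against -0.18, -0.32, -0.65 and -0.40 in 5-day controls. The 10-day groups did not overlap and the 5-day groups did. Angptl7 rose by 1.04 ± 0.24 after 10 days (adjusted p = 0.0293), changed by -0.41 ± 0.24 after 5 days (adjusted p = 0.249) and had a difference of 1.45 ± 0.34 (adjusted p = 0.0453). The difference was called in 10 of the 26 alternatives. Tmed5, a cargo receptor of the early secretory pathway, fell by 0.40 ± 0.10 after 10 days (adjusted p = 0.0476) and changed by 0.22 ± 0.10 after 5 days, with a difference of -0.62 ± 0.14 (adjusted p = 0.0453). The 10-day fall of Tmed5 kept its call in 8 of 26 alternatives and its difference in 10. Ms4a18 was above background on none of the 10-day controls and 2 of the 10-day stressed arrays, and was at least 1.10-fold higher (adjusted p of the difference 0.034). Its mean signal was lower in 10-day than in 5-day stressed hearts (-0.59). It was also lower in 10-day than in 5-day controls (-2.66, with the 10-day controls undetected). Slide and days of stress cannot be told apart in these 2 gaps. With quantile normalisation no gene was specific to 10 days.

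Myh7 and Comp were called after 10 days and not after 5 days, without a called difference. Myh7, the slow beta-myosin heavy chain of the fetal mouse ventricle, had 8.0, 7.46, 6.24 and 7.95 in 10-day stressed hearts, against 4.58, 4.84, 4.80 and 4.52 in 10-day controls. In 5-day stressed hearts it had 6.67, 6.11, 5.52 and 7.08, against 5.22, 5.61, 5.13 and 5.19 in 5-day controls. The 10-day groups were far apart, and the 5-day groups overlapped through stressed replicate 3 and control replicate 2. It rose by 2.73 ± 0.39 after 10 days (adjusted p = 0.000382) and changed by 1.05 ± 0.39 after 5 days (adjusted p = 0.0681). The difference of 1.68 ± 0.55 was not called (adjusted p = 0.116). Comp, a cartilage matrix protein of the thrombospondin family, rose by 1.21 ± 0.22 after 10 days (adjusted p = 0.00673) and changed by 0.07 ± 0.22 after 5 days (adjusted p = 0.864). Its difference of 1.14 ± 0.32 also was not called (adjusted p = 0.0731). Comp was the member of the collagen and matrix list that departed most from equal effects in this direction. The opposite departure was seen for Timp1, an inhibitor of matrix metalloproteinases, with 1.17 ± 0.32 after 10 days (adjusted p = 0.0761) and 2.80 ± 0.32 after 5 days (adjusted p = 2.63e-06). Its difference was -1.63 ± 0.46 (adjusted p = 0.0752), and without the 10-day control replicate 3 its 10-day change was called (1.40, adjusted p = 0.0435).

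Hormone-responsive and immediate early genes did not separate the lengths by called differences. For comparison, 5.29% of all tested genes rose and 8.43% fell after 5 days, and 1.13% were called after 10 days. The counts of called glucocorticoid targets differ from these shares by a few genes at most. Of 26 glucocorticoid receptor targets 0 were called after 10 days, and 2 rose and 2 fell after 5 days, with medians of -0.47 after 10 days and -0.35 after 5 days. Of the 26, 23 were measured lower after each length, against 13754 after 10 days and 18318 after 5 days of the 27517 tested genes. An unadjusted p below 0.05 was found for 13 after 10 days and 10 after 5 days, against 3609 and 8121 of all tested genes. In every stressed heart the list mean was below all controls of its slide. It was at most -0.36 after 10 days and -0.22 after 5 days, with the lowest controls at -0.32 and -0.20. Without 1 array 1 to 2 rose and 1 to 4 fell after 5 days, and 0 or 1 was called after 10 days. Fkbp5, a chaperone induced by the receptor, changed by -0.22 ± 0.25 after 10 days (adjusted p = 0.765) and by -0.33 ± 0.25 after 5 days (adjusted p = 0.375). Ddit4, an inhibitor of mTORC1 induced by the same receptor, had 4.31, 4.12, 4.80 and 4.53 in 10-day stressed hearts, against 5.83, 5.22, 5.34 and 4.90 in their controls. It had 4.19, 4.11, 4.19 and 4.37 in 5-day stressed hearts, against 5.92, 5.35, 4.99 and 5.06 in their controls. The stressed hearts were lower without overlap at both lengths, and Ddit4 fell by 1.11 ± 0.25 after 5 days (adjusted p = 0.0032), while its 10-day change of -0.88 ± 0.25 was not called (adjusted p = 0.0807). Of 24 immediate early genes, 1 fell after 10 days (Egr3) and 2 after 5 days (Klf2 and Klf4). Their median was -0.83 after 10 days and -0.13 after 5 days, and without the 10-day control replicate 3 the 10-day median was -0.29 with 0 calls, and 5 fell after 5 days. The fall of Egr3 was also lost without the 10-day stressed replicate 2 or 4 or control replicate 1, and the 5-day median reached -0.33 without the 5-day stressed replicate 2. Fos showed this array most plainly, with -3.41, -3.02, -3.36 and -2.57 in 10-day stressed hearts, against -2.25, -2.72, 4.04 and -2.19 in 10-day controls.

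Marker lists of other cell types were also measured in both comparisons. As a background, 5.29% of all tested genes rose and 8.43% fell after 5 days, and 1.13% were called after 10 days. All-gene medians were 0.00 after 10 days and -0.12 after 5 days. The platelet, endothelial and ribosomal protein counts differ from these shares by a few genes at most. Of 15 platelet genes 1 rose after each length, Gp1bb after 10 days, and all 15 were measured higher after 10 days with a median of 0.76, against 14 higher and a median of 0.32 after 5 days. The rise of Gp1bb was lost without each of 6 arrays of the 10-day slide, and the 5-day median ran from 0.12 to 0.58 without 1 array. Of 16 erythroid markers 5 rose after 5 days and 0 were called after 10 days, with medians of 0.26 after 10 days and 0.63 after 5 days. Without the 10-day stressed replicate 1 the 10-day median was 0.08, and without replicate 4 it was 0.49. Without the 5-day stressed replicate 3 the 5-day median was 0.36 and 2 rose, and 2 and 3 rose without the 5-day control replicates 1 and 4. Slc4a1, the red cell anion exchanger, had 2.94 in 10-day stressed replicate 1 and 0.52 to 0.79 in the other 10-day stressed hearts, against -0.75 to 0.24 in 10-day controls. It had 3.6 in 5-day stressed replicate 3 and 0.93 to 1.37 in the other 5-day stressed hearts, against -0.46 to 0.26 in 5-day controls. The 10-day stressed replicate 1 was also the highest of its group for mitosis and DNA replication, and the part of blood cells in those values was not tested. Of 21 adipocyte markers 2 fell after 5 days, with medians of -0.87 after 10 days and -0.46 after 5 days. The 10-day median was -0.38 without the 10-day stressed replicate 4 and -0.56 without control replicate 4. The 5-day median was -0.15 with 1 fall without the 5-day stressed replicate 3, -0.25 without control replicate 1 and -0.79 without the stressed replicate 4. Of 20 endothelial markers 1 (Aplnr) rose after 10 days, and 2 rose and 1 fell after 5 days. Without 1 array 0 to 2 rose after 10 days and 0 to 2 fell after 5 days. Of 36 cytosolic ribosomal protein genes 4 fell after 5 days and 0 were called after 10 days, with medians of -0.01 after 10 days and -0.13 after 5 days. Without each of 5 arrays of the 5-day slide 2 fell after 5 days, and the 10-day median ran from -0.06 to 0.03.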

How the data were processed

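RNA from individual hearts was hybridised to 1-colour (Cy3) Agilent mouse arrays, and the scanner files of 32 arrays were used. Per the file headers, Agilent Feature Extraction detrended and background-subtracted the intensity of each spot. Flags of 0 or 1 in the deposited files (other values) mark, for every spot, saturation, outliers and whether it stood well above background. The authors' deposited table of log2 values followed the log2 mean signal (correlation 0.99951 or more) rather than the processed signal (0.98324 or less). It is quantile normalised within each slide and not centred by gene, with a column median of 5.854 on the 10-day slide, and it was used only for comparison.

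The arrays had 62976 spots, 3671 of them controls. Outlier spots (5470 in all) were dropped, replicate spots were averaged into 55681 probes, and no probe value was saturated. Genes were named through RefSeq tables of assembly GRCm38.p6 by accession (26519 probes), through another probe (574) or by symbol (3307), and 25281 probes kept the array's name. Probe positions are the array design's, on mm9, and exon or UTR annotation was not used here. Probes had to be well above background on 3 of 4 arrays in some group, with no more than 4 arrays missing. The brightest kept probe stood for a gene, so 27517 genes were tested, 18306 with an official symbol. Of them 7331 had several kept probes, and 54 values were missing.

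The log2 processed signal minus the log2 of each array's 75th percentile was fitted with limma 3.58.1 (R 4.3.3, data.table version 1.17.8) as 8 group means over 32 arrays, leaving 24 residual degrees of freedom beside 2.28 prior ones. Contrasts were stressed minus control at 10 days, the same at 5 days, and their difference. All tests were two-sided with Benjamini-Hochberg adjustment over all tested genes, and the fit was tested on simulated data. A gene above background on no array of a group is given as a bound, with no size for its difference. On each array of that group its signal was raised, where lower, to the lowest signal of any probe above background. Such bounds hold only for this scaling and background correction. The 4 mice per group limit the precision. The groups, the 35 gene lists (830 of 884 genes tested) and the tests were chosen with earlier results of these data known. The rule for named genes took, by official symbol, up to 10 genes per class and direction with the largest changes, up to 8 per list, and Fkbp5, Per1, Nppa, Nppb, Myh7 and Postn. Not all of these are named in the text, and a few items are not reported here. Alternatives changed the scaling, background correction, value source, arrays fitted, detection filter, probe choice, replicate block, slide row, array weights, threshold and size of change, and left out each array in turn.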

Additional observations from a re-analysis of the deposited data

Results flagged for a closer look

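A sample was set apart when its gap to the nearest of its group exceeded Dixon's 95% value, which chance does for about 1 in 20 groups. Of 460 groups of 4 for single genes 26 were set apart, and of 140 for list means 8 were, both near that rate. All values are log2 signals relative to the array's 75th percentile.

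The 10-day stressed replicate 1 lay above the others of its group for Tk1 (0.10, others -0.73 to -0.65), Mcm3 (1.37, others 0.73 to 0.82), E2f1 (-1.08, others -2.10 to -1.97), Kif4 (-3.57, others -4.84 to -4.65), Vcan (0.10, others -0.40 to -0.33), Col26a1 (-3.05, others -3.55 to -3.52), Rsph14 (-3.32, others -3.69 to -3.64) and Slc4a1 (2.94, others 0.52 to 0.79). Replicate 4 of that group was high for Csf1r (5.01, others 4.70 to 4.71). The 10-day control replicate 3 was high for Fos (4.04, others -2.72 to -2.19), Ccl7 (2.90, others -0.45 to -0.41) and Ccl12 (1.47, others -0.22 to -0.06), and low for Serpina3n (-1.93, others -1.60 to -1.58). The 10-day control replicate 2 was high for Ms4a6d (-1.16, others -1.74 to -1.65), and replicate 4 was low for Prss55 (-2.03, others -1.84 to -1.83).

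The 5-day stressed replicate 1 was high for Loxl2 (3.5, others 2.31 to 2.45), Cdc20 (0.52, others 0.05 to 0.07) and Fkbp5 (2.63, others 2.22 to 2.29), and replicate 3 for Slc4a1 (3.6, others 0.93 to 1.37). The 5-day control replicate 1 was high for Fkbp5 (3.16, others 2.49 to 2.55) and low for Cxcl10 (-2.76, others -2.06 to -1.92). The 5-day control replicate 2 was high for Kif22 (-2.29, others -2.57 to -2.53) and low for S100a8 (-4.80, others -3.64 to -3.44), Trem2 (-0.71, others -0.13 to -0.06) and Gclm (-1.35, others -1.18 to -1.14). The 5-day control replicate 3 was high for Nmrk2 (1.92, others 1.58 to 1.62).

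Among list means, relative to the control mean of the slide, the 10-day control replicate 3 was high for immediate early genes (2.03, others -0.77 to -0.52), acute inflammation (0.93, others -0.39 to -0.18) and cardiac stress genes (0.20, others -0.09 to -0.05). The 10-day stressed replicate 2 was high for platelet genes (1.13, others 0.43 to 0.52), and replicate 3 low for endoplasmic reticulum genes (-0.12, others -0.06 to -0.05). The 5-day stressed replicate 4 was low for neutrophil genes (0.14, others 1.00 to 1.14), and replicate 2 high for lung markers (0.46, others -1.87 to -1.50). The highest mean of the 4 lung markers was in the 5-day control replicate 4 (2.27, other 5-day controls -1.02 to -0.35), which this rule did not set apart. The 5-day control replicate 1 was low for mitosis genes (-0.12, others 0.03 to 0.05). What sets these arrays apart was not tested.

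The difference of stress effects (10 days minus 5 days) was called by limma for 29 of the genes described. It was negative for Cdca3 (-2.46), Ccl12 (-2.41), Pimreg (-2.26), Tubb3 (-1.71), Birc5 (-1.63), Kif22 (-1.59), Mki67 (-1.54), Bub1b (-1.51), Uhrf1 (-1.38), Plk1 (-1.21), Mcm5 (-1.17), Aurka (-1.16), Mcm3 (-1.16), Cdc20 (-1.03), Tk1 (-1.0) and Tmed5 (-0.62). It was positive for Rsph14 (1.52), Angptl7 (1.45), Cib3 (1.32), C7 (0.93), Myom2 (0.68), Cox7a1 (0.58) and Cox4i1 (0.46). For genes undetected in a group only the adjusted p of the difference is given, namely Fanci (0.00132), Spag5 (0.0319), Ms4a18 (0.034), Kif4 (0.0453), Rad54b (0.0483) and Col26a1 (0.0498).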

How the results depend on the processing

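Of 345 effects of 115 genes under up to 26 alternatives, 8131 comparisons kept their side of the threshold, 709 lost the call and 115 gained it. Another 3 changed sign with a call in at least 1 of the compared fits. Changes of sign with no call in either fit are counted among the 8131. The 3 came with the mean over probes, since the probes of these genes disagree. They were Cdk1 after 5 days (1.77, adjusted p = 1.1e-05, against -0.25 with the brightest probe), the Cdk1 difference (-1.54, adjusted p = 0.0332) and Tpx2 after 5 days (0.97, adjusted p = 0.00826, against -0.59). The 312 calls after 10 days became 185 with quantile normalisation, 45 with only the 16 arrays, 181 without the detection filter, 1158 with array weights, 59 at an adjusted p below 0.01 and 81 with a change of at least 1, and ran from 86 to 449 without 1 array. The 3776 calls after 5 days ran from 2177 to 3900 without 1 array became 1583 at 0.01 and 526 with a change of at least 1, and stayed within 1.5 times under the 10 other settings. The 163 called differences became 72 with quantile normalisation, 546 with the 16 arrays, 12 without the filter, 262 with the stricter filter, 285 with slide row, 1989 with array weights, 3 at 0.01 and 66 with a change of at least 1, and ran from 11 to 321 without 1 array. The 192 shared genes became 31 with the 16 arrays, 126 without the filter, 518 with weights, 47 at an adjusted p below 0.01 and 45 with a change of at least 1, and ran from 62 to 224 without 1 array. The 151 genes specific to 5 days became 72 with quantile normalisation, 99 with normexp, 467 with the 16 arrays, 12 without the filter, 239 with the stricter filter, 262 with slide row, 1395 with weights, 3 at 0.01 and 47 with a change of at least 1, and ran from 11 to 292 without 1 array. The 6 specific to 10 days became 0 with quantile normalisation, without the filter and at 0.01, 10 with slide row and 180 with weights, and ran from 0 to 11 without 1 array. Genes with opposite effects numbered 0, but 1 with normexp, the 16 arrays, the stricter filter, the mean over probes or slide row, 2 with the authors' table and 28 with weights, and 0 or 1 without 1 array. The share of negative differences was 55% with normexp, and the share of lower 10-day calls 21.6% with quantile normalisation against 31.7%. The 0.01 threshold and the size of change were added for these 3 counts of calls after the data were seen. The cause of these shifts was not tested. Dim probes give only bounds.

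Replicate numbers of stressed and control mice were not shown to pair them, since deviations of same-numbered arrays correlated at -0.02 to 0.06 on the 10-day slide and -0.06 to 0.21 on the 5-day slide. With the replicate number as a block, 211 genes were called after 10 days, 3486 after 5 days and 33 for the difference, 142 were shared (120 of the 192), 30 were specific to 5 days, 2 to 10 days and 1 opposite. With the block 1 mitosis gene had a called difference.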
